A study of Homo sapiens with 6 samples.

Results

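The genes described here are those of the NF-kappa-B subunits and of the inhibitors that feed back on them. The members were the table rows listed under 10 gene symbols, NFKB1, NFKB2, RELA, RELB, REL, NFKBIA, NFKBIB, NFKBIE, NFKBIZ and TNFAIP3, and all 10 were found among the 54259 symbols of the table. RNA-Sequence libraries came from MDA-MB-231, an established human breast cancer cell line, in 3 libraries of cells with a short hairpin RNA against brachyury (shBry) and 3 libraries of cells with a control hairpin (shNC), so that both groups carry a hairpin and differ in its target. The comparison asks which transcripts differ when the transcription factor brachyury is targeted in these cells. Age, treatment and time are not given for the cultures, and the sources give neither the hairpin sequences nor whether a line was 1 clone. All 6 libraries stand for 1 cell line. Nothing in the labels says that the libraries of a group came from separate cultures, so the p-values measure the spread between these libraries, which may be technical. The design text of the series calls the RNA pericardial, while every sample label names breast cancer cells.

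NF-kappa-B is a family of transcription factors that act as dimers of the proteins coded by RELA, RELB, REL, NFKB1 and NFKB2. In resting cells the dimers are held in the cytoplasm by inhibitor proteins of the I-kappa-B family, among them the products of NFKBIA, NFKBIB and NFKBIE, until the I-kappa-B kinase complex marks the inhibitor for destruction. NFKB1 and NFKB2 code for precursors that hold dimers back themselves and give rise to DNA-binding subunits when they are processed, and the dimer of RELB with the processed NFKB2 product is the hallmark of the non-canonical pathway. Several of these genes are themselves known targets of NF-kappa-B, which makes NFKBIA and the ubiquitin-editing enzyme TNFAIP3 the classical negative feedback of the pathway, and in breast cancer cells of the mesenchymal kind the pathway is known for inflammatory gene expression.

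The libraries held between 19319411 and 22985371 counts. Brachyury, listed as T, had 0 counts in each of the 6 libraries, which allows a level of up to 0.155 CPM (library-scaled counts, with 3 counts as the floor and counting error only) where depth was lowest, so the knockdown could not be checked on its own target. The 7 markers of MDA-MB-231 cells were all tested, 1 called higher and 1 lower. Their summed levels were 6644 to 6840 CPM in shBry and 7609 to 7953 in shNC, with VIM at 3204 CPM in shBry and 3864 in shNC. Of the 8 luminal breast markers, ESR1, PGR and CDH1 lay under 1 CPM. KRT8 and KRT18 were high, at 239 and 372 CPM in shBry and 891 and 508 in shNC. Of 8 leukocyte markers, PTPRC and TYROBP were at 0 in all libraries and 6 were under 1 CPM, and the summed level was 435 to 466 CPM in shBry and 382 to 415 in shNC, mostly from CD68. ITGB2 was the leukocyte marker called higher, with 30.5 CPM in shBry against 11.4 in shNC. The summed fibroblast markers lay between 31.8 and 35.4 CPM in shBry and between 30.2 and 35.9 in shNC, with DCN at 0, and none of the 2 tested was called. The summed endothelial markers lay between 1.29 and 2.66 CPM in shBry and between 3.4 and 4.63 in shNC, none of the 5 was at 0, and KDR, the 1 tested, was called lower. The summed luminal markers lay between 567 and 705 CPM in shBry and between 1345 and 1461 in shNC, mostly from KRT8 and KRT18. Of the 8, 5 were tested, with EPCAM called higher and KRT8 lower, and none was at 0. The share of counts on ribosomal protein genes was 5.45% to 6.38% in shBry and 5.21% to 5.42% in shNC, and the parts of these marker and ribosomal differences in the results were not tested. In RNA of whole cultures, fewer cells of a kind and less RNA per cell cannot be told apart.

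Of the 10 genes, 7 were differentially expressed between shBry and shNC, all 7 higher in shBry, where 17.1% of the 15277 tested genes were called higher, 15.2% lower and thus 32.4% in either direction. They were NFKB2, RELB, REL, NFKBIA, NFKBIE, NFKBIZ and TNFAIP3. A gene was called at a Benjamini-Hochberg adjusted p below 0.05 in edgeR's quasi-likelihood test and a fold change above 1.5. A positive log2 fold change means a higher level in shBry. The median log2 fold change was 1.11 over the 10 genes and 0.03 over all tested genes. In 9 of the 10 genes every shBry library lay above every shNC library, which held for 30.6% of all tested genes, and for 59.5% the groups were apart in either direction. NFKB1 and RELA had adjusted p below 0.05 but stayed under the fold change limit, so that 9 genes passed on p alone, against 53.3% of all tested genes, and NFKBIB had overlapping groups. At a stricter fold change limit of 2, 5 genes were called, against 8.21% of all tested genes.

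Among the subunit genes, NFKB2 and RELB had the largest rises. NFKB2, on chromosome 10 of GRCh38 from 102394110 to 102402529, had TMM-normalized CPM of 369, 321 and 329 in shBry replicates 1, 2 and 3, and 118, 111 and 102 in shNC replicates 1, 2 and 3. The lowest shBry library lay far above the highest shNC library. Its log2 fold change was 1.62 (standard error 0.09, adjusted p = 2.8e-09, edgeR), a 3.08-fold rise with a 95% interval of 2.7 to 3.5. RELB, on chromosome 19 from 45001430 to 45038198, codes for the partner of the processed NFKB2 product. It had 118, 103 and 108 CPM in shBry and 27.9, 28.6 and 22.5 in shNC. These groups did not overlap, and the log2 fold change was 2.05 (standard error 0.11, adjusted p = 1.9e-09, edgeR), a 4.15-fold rise, and 98.3% of tested genes had a log2 fold change at or below it.

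NFKB1 and RELA, which code for the subunits of the classical dimer, differed far less. NFKB1, on chromosome 4 from 102501329 to 102617302, had 103, 95.8 and 102 CPM in shBry and 74.4, 69.1 and 74.5 in shNC. No shNC library reached the lowest shBry library. On the log2 scale the difference was 0.46 (standard error 0.08, adjusted p = 0.00026, edgeR), and the upper end of its interval, 0.64, lay just above the fold change limit. RELA, on chromosome 11 from 65653596 to 65663094, had 173, 148 and 157 CPM in shBry and 138, 137 and 125 in shNC. All shBry libraries were above all shNC libraries, but by little, and the log2 fold change came to 0.26 (standard error 0.08, adjusted p = 0.019, edgeR). With each library left out in turn, the log2 fold change of RELA lay between 0.19 and 0.29 and the adjusted p between 0.0092 and 0.095 in the same edgeR test.

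REL, on chromosome 2 from 60881521 to 60931610, codes for the subunit best known from lymphocytes and was low in these cells. It had 82, 196 and 137 counts in shBry, or 4.41, 8.26 and 6.07 CPM, and 80, 77 and 86 counts in shNC, or 3.67, 3.64 and 4.31 CPM. The lowest shBry library was barely above the highest shNC library, and the range over the shBry libraries was wider than the difference between the group means. Its log2 fold change was 0.70 (standard error 0.22, adjusted p = 0.016, edgeR). The call rested on single libraries. Without shBry replicate 2 the log2 fold change was 0.43 (adjusted p = 0.091), without shNC replicate 1 it was 0.66 (adjusted p = 0.055) and without shNC replicate 2 it was 0.64 (adjusted p = 0.065, same edgeR test). The transcript AC010733.2 covers 43.3% of the exon bases of REL on the same strand in GENCODE 29, but it is not among the symbols of the table.

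The make-up of the subunit transcripts was read within each library, as the share each gene held of the summed counts per exon length of the 5 subunit genes, which needs no scaling between libraries. NFKB2 and RELB together held 71.4%, 71.1% and 70.5% of the subunit level in shBry and 48.6%, 48.5% and 46.3% in shNC. The difference was 23.2 percentage points, and the groups did not overlap. RELA held 18.5% ± 0.26 (SD, n = 3) in shBry and 35.1% ± 0.409 in shNC, although its own level was slightly higher in shBry. NFKB1 held 10.2% ± 0.47 against 16.7% ± 1.34. REL held 0.306% ± 0.112 in shBry and 0.424% ± 0.0659 in shNC, with overlapping groups. The ratio of NFKB2 to NFKB1 differed by 1.16 on the log2 scale and that of RELB to RELA by 1.8, so the subunit genes differed between the groups by unequal amounts. With 3 libraries against 3, the exact two-sided permutation test cannot give a p below 0.1, which it gave for each of these quantities but the share of REL (p = 0.3). Adjusted over the 11 quantities compared in this way, the p was 0.11 and 0.3. In shBry the order of RELB and RELA depended on the length used, since RELB was above RELA by 0.306 on the log2 scale per merged exon length and below it by a log2 ratio of -0.0693 per longest transcript.

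**Figure D1:**
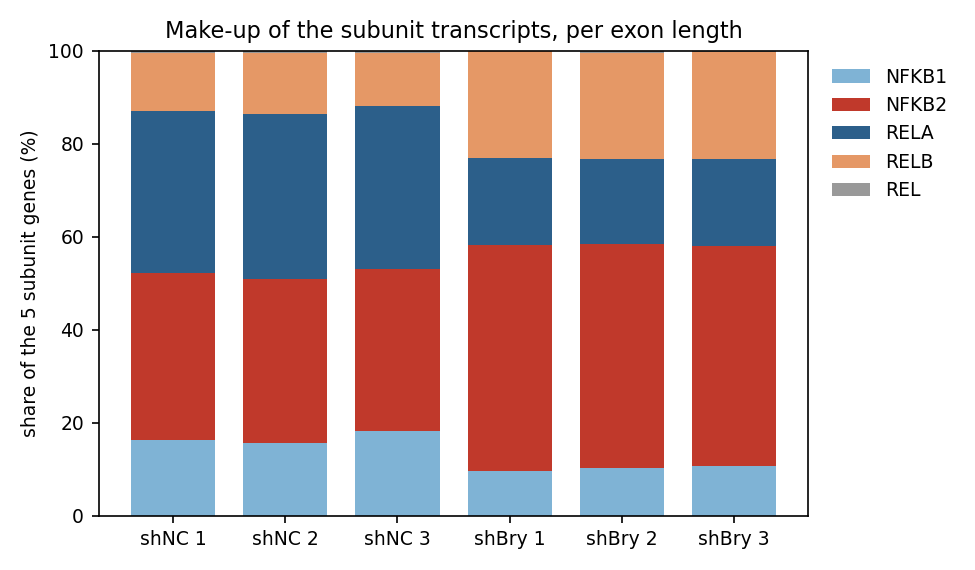
Share (%, vertical axis) of the summed counts per exon length of the 5 subunit genes held by each gene, in 3 shNC and 3 shBry libraries, with REL too small to be seen. NFKB2 and RELB together take up 46.3% to 48.6% of the shNC bars and 70.5% to 71.4% of the shBry bars.

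Among the inhibitors that hold dimers in the cytoplasm, NFKBIA and NFKBIE were higher in shBry. NFKBIA, on chromosome 14 from 35401511 to 35404749, had 195, 172 and 190 CPM in shBry and 102, 103 and 93.8 in shNC. Every shBry library was above every shNC library, and the log2 fold change was 0.90 (standard error 0.08, adjusted p = 6.2e-07, edgeR), a 1.87-fold rise. Per exon length NFKBIA had the highest level of the 10 genes in shNC (41.8 CPM per kilobase) and lay with NFKB2 at the top in shBry (78.3 ± 5.05 against 75.8 ± 5.7, SD, n = 3), where these 2 differed by less than their spread. Per merged exon length, the order of the levels below them was NFKBIE, RELB, RELA, NFKB1, NFKBIZ, TNFAIP3, REL and NFKBIB in shBry, and NFKB2, RELA, NFKBIE, NFKB1, RELB, TNFAIP3, NFKBIZ, NFKBIB and REL below NFKBIA in shNC. NFKBIZ and TNFAIP3 overlapped in both groups, as did REL and NFKBIB in shBry and NFKB2, RELA and NFKBIE with each other in shNC. NFKBIB is placed by its listed counts only, from which its level could not be read. The order and the overlaps depended on the length used. Per longest transcript, RELA was above NFKB2 in shNC, with 40.3% against 31.1% of the subunit level. NFKBIE, on chromosome 6 from 44258166 to 44265788, had 151, 114 and 134 CPM in shBry and 54.1, 59.3 and 45.9 in shNC. The shBry libraries were spread more widely than the shNC libraries but did not reach them, and the log2 fold change was 1.32 (standard error 0.12, adjusted p = 4.1e-07, edgeR), a 2.5-fold rise. Within a library, the log2 ratio of NFKBIA to RELA per exon length was 1.38, 1.42 and 1.47 in shBry and 0.758, 0.787 and 0.79 in shNC. The ratio of the inhibitor transcript to that of the subunit it binds was thus higher in shBry by 0.645 on the log2 scale (exact permutation p = 0.1, the smallest this design allows).

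The largest rises were those of NFKBIZ and TNFAIP3. NFKBIZ, on chromosome 3 from 101827991 to 101861022, codes for an atypical inhibitor protein that acts in the nucleus and is needed for a subset of NF-kappa-B target genes. It had 42.9, 47.7 and 41.4 CPM in shBry and 7.51, 9.17 and 8.71 in shNC. The groups were widely separated. On the log2 scale the difference was 2.38 (standard error 0.12, adjusted p = 2.1e-09, edgeR), a 5.2-fold rise with a 95% interval of 4.33 to 6.24. TNFAIP3, on chromosome 6 from 137867188 to 137883312, had 36.6, 37.9 and 36 CPM in shBry and 7.38, 7.85 and 7.61 in shNC. Its libraries were the closest to each other of the 10 genes, and the log2 fold change was 2.27 (standard error 0.12, adjusted p = 1.6e-09, edgeR), a 4.84-fold rise. The intervals of NFKBIZ (2.11 to 2.64) and TNFAIP3 (2.03 to 2.52) on the log2 scale overlapped. The ratio of TNFAIP3 to NFKBIA was higher in shBry by 1.37 on the log2 scale, and that of NFKBIE to NFKBIA by 0.421 (exact permutation p = 0.1 for each).

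Over the 6 libraries, and with the log2 CPM of each gene centred on its mean, the gene nearest to NFKBIZ among 9412 tested genes averaging 10 CPM or more was TNFAIP3, at a Euclidean distance of 0.22. ERN1, which codes for a sensor of unfolded proteins, followed at 0.26 and ZNF239 at 0.27, with log2 fold changes of 2.32 and 2.23. For NFKBIB, the gene with the lowest log2 fold change, the nearest genes NEIL1, HSF4 and CAMTA1 were farther off, at 0.62, 0.63 and 0.63. These distances are a description, since 6 libraries in 2 groups leave mainly the group difference to compare.

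**Figure D2:**
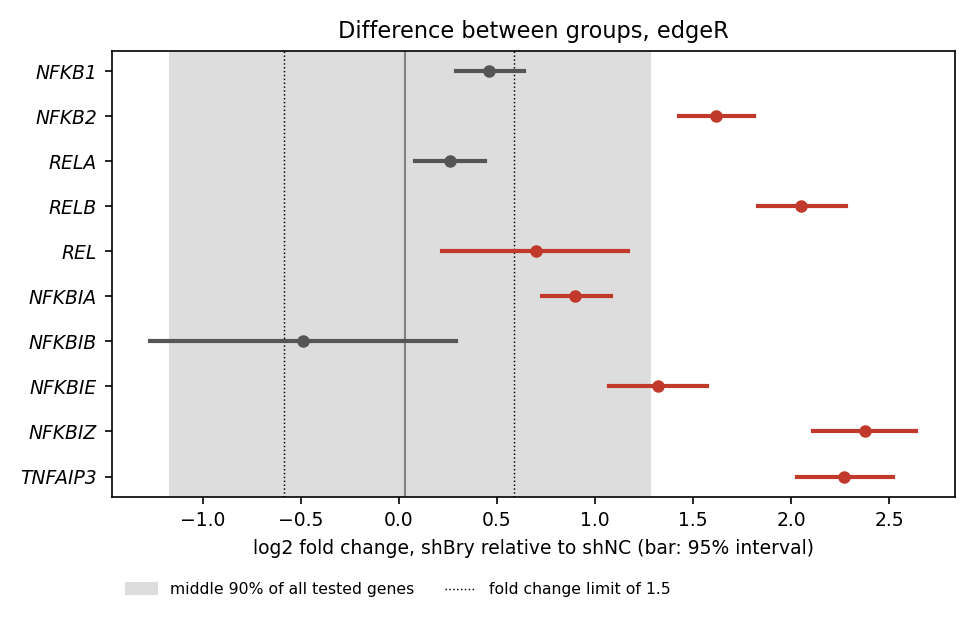
Log2 fold change of shBry relative to shNC for the 10 genes with the 95% interval from edgeR, called genes in red, others in grey. The grey band runs from the 5th percentile (-1.17) to the 95th percentile (1.28) of all tested genes, and NFKB2, RELB, NFKBIE, NFKBIZ and TNFAIP3 lie at or beyond its upper end, with part of the NFKBIE interval inside it.

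NFKBIB, which codes for a further cytoplasmic inhibitor, stood apart from the other genes in its listed counts. It had 18, 25 and 20 counts in shBry, or 0.969, 1.05 and 0.887 CPM, and 19, 45 and 22 counts in shNC, or 0.871, 2.13 and 1.1 CPM. The groups overlapped, with a log2 fold change of -0.49 and an interval from -1.27 to 0.29 (adjusted p = 0.27, edgeR). No difference lay inside this interval, which covers the listed counts only. Without shNC replicate 2, the library with 45 counts, the log2 fold change was -0.04 (adjusted p = 0.95, same edgeR test), and with another library left out it went down to -0.74. The gene lies on chromosome 19 from 38899700 to 38908893, in a stretch where neighbours were also low. SARS2 and MRPS12, which code for parts of the mitochondrial translation apparatus that nearly all cells use, had means of 1.49 and 1.03 CPM over the 6 libraries. SIRT2, ECH1 and FBXO17 had 1.49, 2.26 and 2.16 CPM. Beyond them, FBXO27 had 144 CPM, and HNRNPL, which lies between ECH1 and SIRT2, had 56.7. The annotated exons of NFKBIB overlap those of SIRT2, on the other strand, over 1.72% of their bases, and 1.94% of its stretches of 50 bases occur in transcripts of other genes. What set the low counts of this stretch was not tested, and the level of NFKBIB could not be read from them.

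Because most of these genes are known targets of NF-kappa-B, their promoters were searched for the kappa-B motif in the strict form GGGNNTTTCC on both strands, from 250 bases before to 50 bases after each start annotated by RefSeq on GRCh38.p14. Windows were given for 8 of the 10 genes, that is for all but RELB and NFKBIE. At least 1 match was found in 7 of these 8 genes (87.5%) and in 635 of 27305 genes with a window (2.33%). Counted by window, 8 of the 14 windows of these genes (57.1%) had a match, against 1.91% of the 35116 windows. RELA, with 2 windows, was the gene without a match. The kappa-B consensus in its usual looser form, of which these matches are in part a subset, was found in the same number of members, 7 of 8, against 13.3% of all genes. Since most of these genes are known targets of NF-kappa-B, the high share of matches is not independent of the choice of genes and is a description. The 9 matches are shown with 10 bases on either side, read on the strand where the motif starts with GGG and with the match in capitals.
NFKB1, chr4:102501310-102501319: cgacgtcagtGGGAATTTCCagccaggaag
NFKB2, chr10:102394500-102394509: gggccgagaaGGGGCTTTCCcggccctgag
NFKB2, chr10:102395684-102395693: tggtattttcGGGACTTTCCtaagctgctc
REL, chr2:60881528-60881537: ctggcgggagGGGAATTTCCcgcggctgac
NFKBIA, chr14:35404821-35404830: gtcaggctcgGGGAATTTCCaagccagtca
NFKBIB, chr19:38899941-38899950: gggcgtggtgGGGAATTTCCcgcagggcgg
NFKBIZ, chr3:101827767-101827776: tttttggtctGGGAATTTCCagtgtgcaga
TNFAIP3, chr6:137867192-137867201: ggatttccacGGGACTTTCCaaagtcacgt
TNFAIP3, chr6:137867204-137867213: ttgtaggcccGGGGATTTCCacgggacttt

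The 250 bases before an annotated start are shown for 3 of the genes called higher, 1 subunit gene and both classical feedback genes, 5′ to 3′ on the strand of the gene, with the matches of either orientation in capitals. NFKB2 has 3 windows, and the one shown was picked from those with a match. The NFKB2 window at the start of the gene position given above had no match. TNFAIP3 carried 2 matches with 2 bases between them, starting 67 and 55 bases before the start annotated by RefSeq. The match of NFKBIA started 81 bases before its RefSeq start. The gene positions given above came from GENCODE, and the matches of TNFAIP3, REL, NFKBIB and NFKB2 lie after the gene starts given there.
NFKB2, chr10:102395455-102395704, plus strand: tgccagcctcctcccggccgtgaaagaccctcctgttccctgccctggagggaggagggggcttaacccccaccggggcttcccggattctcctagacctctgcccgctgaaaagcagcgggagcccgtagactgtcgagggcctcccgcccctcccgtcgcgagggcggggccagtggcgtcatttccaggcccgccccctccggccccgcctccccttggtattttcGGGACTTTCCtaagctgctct
NFKBIA, chr14:35404750-35404999, minus strand: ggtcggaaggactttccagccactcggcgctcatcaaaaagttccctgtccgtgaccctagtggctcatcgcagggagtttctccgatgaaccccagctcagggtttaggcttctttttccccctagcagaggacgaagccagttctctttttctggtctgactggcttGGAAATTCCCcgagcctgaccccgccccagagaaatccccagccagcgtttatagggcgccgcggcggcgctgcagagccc
TNFAIP3, chr6:137867009-137867258, plus strand: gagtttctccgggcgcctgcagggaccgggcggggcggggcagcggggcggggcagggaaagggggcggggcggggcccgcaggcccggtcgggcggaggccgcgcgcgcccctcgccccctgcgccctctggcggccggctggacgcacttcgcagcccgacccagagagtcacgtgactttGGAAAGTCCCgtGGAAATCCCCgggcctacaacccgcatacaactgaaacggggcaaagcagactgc

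NFKBIZ, with the largest rise, and NFKB1, which was not called, each carried 1 match with the same 10 bases, as did REL, NFKBIA and NFKBIB. Of these, NFKBIZ, NFKB1 and NFKBIB each had 2 windows, with the match in only 1 of them. Among the 295 other tested genes with a match, 18.6% were called higher in shBry and 12.5% lower, with a median log2 fold change of 0.10. Among the 10213 other tested genes with a window and no match, 16.3% were called higher and 15.6% lower, with a median of 0.02. A match says that these letters stand in the window and not that a factor binds there.

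**Figure D3:**
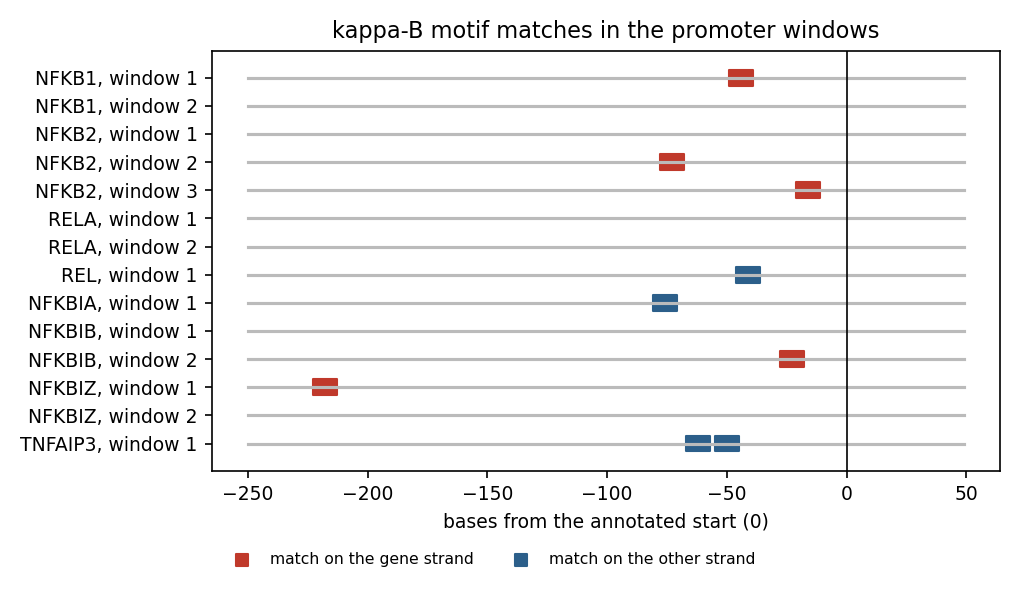
Position of each match to the motif in the 14 promoter windows of 8 genes, in bases from the annotated start (0), with matches on the gene strand in red and on the other strand in blue. Of the 9 matches, 8 start within the last 81 bases before the start, and that of NFKBIZ starts 223 bases before it.

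The other genes of the pathway were described with lists written from general knowledge of the pathway, but with earlier results of these data known. The counts by list are therefore a description. Of 98 genes outside the 10 members, 82 were tested, 29 were called higher and 6 lower, with a median log2 fold change of 0.40, where 17.1% of all tested genes were called higher and 15.2% lower. With at least 10 counts required in every library, 78 were tested, 26 were called higher and 6 lower. With a fold change limit of 2 the counts were 20 higher and 1 lower, against 8.21% of all tested genes higher, and with no limit 45 higher and 12 lower, against 53.3% in either direction. At the limit of 2, no kinase or inhibitor degradation gene was called in the edgeR test, and 2 receptor and adaptor genes and 2 ubiquitin chain genes were.

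Of 9 ligand genes, only IL1A and IL1B had enough counts to be tested, and both were higher, with log2 fold changes of 6.82 (adjusted p = 2.9e-13) and 5.09 (adjusted p = 4.5e-11, both edgeR). TNF, LTA and LTB, and with them the inhibitor-like gene NFKBIL1, were listed at 0 in all libraries. Within 100 kb of NFKBIL1, 13 of 15 coding genes were listed at 0 and all 15 lay under 1 CPM, so the levels of these genes could not be read.

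Of 17 receptor and adaptor genes, 2 were called higher and 2 lower, with a median of 0.25, which is no larger a share in either direction than over all tested genes (17.1% and 15.2%). BIRC3, a ubiquitin ligase of receptor complexes, rose from 7.29 ± 1.45 to 35.4 ± 7.9 CPM (SD, n = 3), and IRAK2, a kinase of interleukin 1 receptor signaling, from 35.3 ± 2.53 to 114 ± 2.3. TLR4, the endotoxin receptor, and TRADD, an adaptor of the TNF receptor, fell, with log2 fold changes of -0.89 and -0.60. IRAK1 had 463 CPM in shBry and 469 in shNC, and the TNF receptor gene TNFRSF1A had 177 and 224, a log2 fold change of -0.34 under the limit. Without shBry replicate 1, 4 genes of this list were called higher, and without shNC replicate 2 only 1 was called lower.

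Of 12 genes of the I-kappa-B kinase complex and the kinases around it, none was called higher and 2 were called lower, MAP3K3 (log2 fold change -0.86, adjusted p = 1.8e-06, edgeR) and MAP3K8 (-0.69, adjusted p = 0.0036, edgeR). The median was -0.10, and over all tested genes 17.1% were called higher and 15.2% lower. MAP3K14, which codes for the kinase that drives NFKB2 processing, had 88.3 ± 7.02 CPM in shBry and 91 ± 2.13 in shNC (SD, n = 3), and the interval of its log2 fold change ran from -0.23 to 0.14. TAB2 had a log2 fold change of 0.38, under the limit. The 3 genes of the kinase complex itself, named after their values were seen, had log2 fold changes of 0.26 for CHUK (adjusted p = 0.11), -0.13 for IKBKB (adjusted p = 0.28) and -0.53 for IKBKG (adjusted p = 0.012, same edgeR test), the last of which has a near-identical pseudogene that could share its reads. Without shBry replicate 1, and also without shNC replicate 3, 4 genes of this list were called lower.

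Of 13 genes of ubiquitin chain enzymes and the partners of TNFAIP3, 5 were called higher and none lower, with a median of 0.43, against 17.1% and 15.2% of all tested genes. RBCK1, a subunit of the ligase that builds linear ubiquitin chains, was called at 294 ± 19.3 CPM in shBry against 112 ± 8.79 in shNC (SD, n = 3), which is 1.39 on the log2 scale. Its complex partners SHARPIN and RNF31 did not pass, at 0.23 and 0.03 on the log2 scale, the latter named after its value was seen. Other genes overlap 39.1% of the RNF31 exon bases, but those among the symbols of the table overlap only 4.34%. TNIP3, TNIP2, ITCH and CYLD had log2 fold changes of 1.87, 0.77, 0.76 and 0.75, of which TNIP3 lay near 2 CPM and CYLD, a deubiquitinase, was named as the fifth called gene of the list. TNIP1, which codes for the main adaptor of TNFAIP3, had 253 CPM in shBry and 279 in shNC and was not called.

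Of 8 genes of the ligase that marks the inhibitors for destruction, UBE2D1 (0.79) and UBE2D2 (0.78) were called higher and SKP1 (-0.67) lower, and FBXW11 (0.02) and UBE2D3 (0.41) were not called. Over all tested genes 32.4% were called in either direction, so these 3 calls of 8 lay near the background, and without shBry replicate 2 only 1 gene of the list was called higher. Of 7 tested genes of other inhibitors and repressors, none was called in the edgeR test. With no fold change limit in that test, 4 had an adjusted p below 0.05, against 53.3% of all tested genes. Limma-voom, the fit with the replicate block and the fits without shBry replicate 1, shBry replicate 2 or shNC replicate 3 called 1 each. The log2 fold changes of the 7 genes lay between 0.16 and 0.58, with 0.16 for NKIRAS2 and 0.25 for PDLIM2.

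Of 36 genes often used as NF-kappa-B targets, 27 were tested, 21 were called higher and 1 lower, with a median of 1.59, against 17.1% and 15.2% of all tested genes. IL1A, IL1B and BIRC3, among those called higher, were also counted in the ligand or receptor lists. Of the untested targets, LTB lies near NFKBIL1. All 8 coding genes within 100 kb of IER3 were listed at 0, so the levels of LTB and IER3 could not be read. IL6, CCL20 and PTGS2, with shNC counts down to 7, 1 and 5, passed the filter through their shBry counts, so their calls carry little weight. With at least 10 counts required in every library, 24 genes were tested, 18 were called higher and 1 lower. The rises of CXCL8 (7.44), CSF2 (7.21), IL1A (6.82) and IL6 (6.81), all coding for secreted cytokines, were larger than those of any member. CCL2, a chemokine gene, was the gene called lower, with 1.08 ± 0.333 CPM in shBry and 3.33 ± 0.419 in shNC (SD, n = 3, log2 fold change -1.61, adjusted p = 0.00018, edgeR), and was named after its value was seen. BCL2L1 and TNIP1, both with a log2 fold change of -0.14, were the most abundant targets that were not called.

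**Figure D4:**
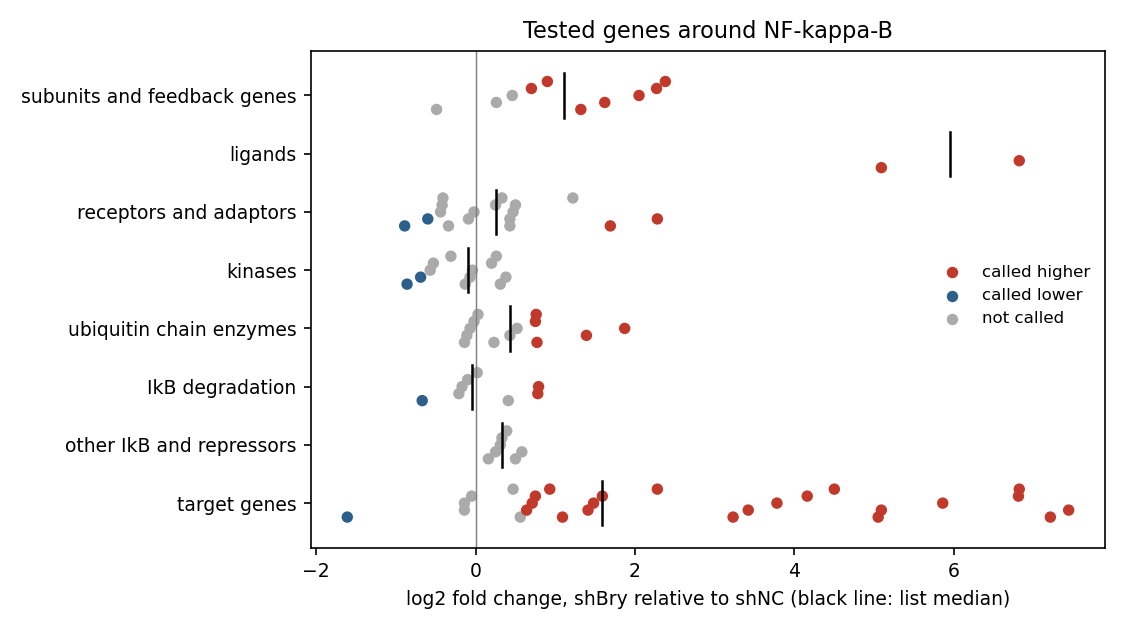
Log2 fold change of shBry relative to shNC (horizontal axis) of each tested gene, by list, with genes called higher in red, called lower in blue, others in grey and a black line at the median of each list. Target genes reach up to 7.44, while the kinase genes lie between -0.86 and 0.38 with none called higher.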

How the data were processed

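RNA of 3 MDA-MB-231 shBry and 3 MDA-MB-231 shNC libraries was sequenced. Per the labels and the values, the deposited table holds unnormalized counts of reads for each gene symbol. The processing notes of the submitters name HISAT2 2.0.4, HTSeq and GRCh38. The annotation and the strand setting are not given in the sources used here, so reads of overlapping genes may have been shared even across strands.

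Low genes were removed with filterByExpr at a minimum count of 10, libraries were scaled by TMM, and shBry was compared with shNC in R 4.3.3 by edgeR 4.0.16 (quasi-likelihood F-test), with adjustment over 15277 genes. CPM are scaled to the TMM-corrected library size. The standard error was the log2 fold change divided by the square root of F. Positions, exon lengths and overlaps came from GENCODE 29, promoter windows from RefSeq on GRCh38.p14.

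The members, lists and alternatives were chosen with earlier results of these data known. Besides the members, the named genes were the 4 largest called changes and the 2 most abundant uncalled genes of each list, the 3 genes nearest to the members with the largest rise and fall, and the markers. In simulated counts for the shBry and shNC comparison over 15075 genes, 179 of 196 changed genes were recovered (91.3%), and 10 unchanged genes were called. These 196 genes were a far smaller part of the genes than the 32.4% called in the data. The 91.3% therefore does not give the share of real changes found in this comparison. Recovery of changes as small as those of REL or NFKB1 was not read from it. Alternatives were other scalings (none, upper quartile), DESeq2 1.42.0, limma-voom (limma 3.58.1), other filters and limits, other gene lengths, the replicate number as a block and each library left out.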

Additional observations from a re-analysis of the deposited data

How the results depend on the processing

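The 6 calls for NFKB2, RELB, NFKBIA, NFKBIE, NFKBIZ and TNFAIP3 held in all 13 alternative fits, and that of REL was lost in 3 of the 6 fits that leave out 1 library. Between 6 and 7 members were called with each library left out, 7 with unadjusted p, 5 with a fold change limit of 2 and 9 with no limit. No member changed its direction under any scaling, filter or test. Of the 82 pathway genes tested, 35 were called, 21 with a limit of 2 and 57 with no limit, and between 35 and 42 with each library left out. The share of NFKB2 and RELB differed by 22.4 to 23.6 percentage points with each library left out, and the NFKBIA to RELA ratio by 0.62 to 0.668 on the log2 scale.
Replicates share numbers between the groups, and a pairing by number was not seen throughout. The deviations of same-numbered libraries from their group means correlated at 0.183, -0.084 and -0.0282 over genes. The best partner of shBry replicate 1 was shNC replicate 1, while shBry replicate 2 correlated best with shNC replicate 3 (0.227). For shBry replicate 3 it was shNC replicate 2 (0.0327). With 3 libraries per group, these values cannot show that there was no pairing. With the replicate number as a block, 7 members and 36 pathway genes were called. For the share and the ratio, a block cannot change the difference between group means, so it was no check on them.
The depth limits REL and NFKBIB most, with at most 196 and 45 counts in a library.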

Other observations

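The strict kappa-B motif was also sought in the promoter windows of the target genes. Of 28 target genes with a window, 9 (32.1%) carried a match, and of the 22 that were tested, 7 (31.8%), against 2.87% of the 10516 tested genes with a window. These genes were listed as targets of NF-kappa-B, so this share is not independent of their choice. CXCL1, CXCL2, CXCL3, IL6, CCL20 and BIRC3 had a match and were called higher, and TNIP1 had a match and was not called. Of these, IL6 and CCL20 passed the filter through their shBry counts, so their calls carry little weight. CXCL8, CSF2 and IL1A, which had the largest rises of the list together with IL6, had no match of this strict form in the 300 bases searched. The genes that had a match or not were named after their values were seen.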
